A study of Homo sapiens with 4 samples.

Results

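A group of 10 RNAs that carry small nucleolar RNAs (snoRNAs) in their introns, SNHG1, SNHG5, SNHG6, SNHG8, SNHG12, SNHG15, SNHG16, GAS5, EPB41L4A-AS1 and ZFAS1, were followed in polyadenylated RNA of cells labelled HepG2, a line established from a human liver tumour. They were found by their symbols in the gene column of the deposited table, as 10 of 57979 genes with a row. All 10 were among the 13246 genes that were tested, those with a mean above 1 FPKM, the number of sequenced fragments relative to transcript length and to the size of the library. The 4 libraries were 2 of Wild type cells (WT 1 and WT 2) and 2 of TXNDC9 knockout cells (TXNDC9-KO 1 and TXNDC9-KO 2), and no drug was named for either group. TXNDC9, a thioredoxin domain protein, had been targeted with Cas9 from the lentiCRISPRv2 plasmid and either of a pair of guides against the first exon of the gene, and in the study's protein blot the control cells carried the vector alone and infected cells had been sorted. Which guide was used in the sequenced cells, and whether they were a clone or a mixed population, is not stated in the sources used here. The labels do not say whether the libraries of a group came from separate cultures, and legends of the study speak of independent experiments in a number that does not match the libraries, so the p-values measure only the spread between these libraries, which may be technical.

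The labels were checked on the targeted gene and on markers of the cells. The TXNDC9 RNA stood at 35.1 and 37.3 FPKM in the WT libraries and at 21.9 and 27.6 FPKM in the TXNDC9-KO libraries, a log2 fold change of -0.55 (SE 0.14, adjusted p = 0.0145 by limma), which missed the threshold used here and became 0.12 when the libraries were rescaled to the same sum. An edit that breaks a reading frame need not lower the RNA. The cells did not show the liver genes of their label. All 8 hepatocyte markers examined (ALB, AFP, APOA1, APOB, TTR, SERPINA1, HNF4A and FGB) were under 0.5 FPKM in each library, their summed level was 0.351 and 0.716 FPKM in the WT and 0.048 and 0.121 FPKM in the TXNDC9-KO libraries, the highest single value was 0.449 FPKM for AFP in WT 2, and APOA1 was listed at 0 throughout. Of 7 markers of other cell types, the fibrillar collagen genes COL1A1 (17.5 to 31.5 FPKM) and COL3A1 (13.1 to 24.0 FPKM) were above 1 FPKM in every library, and the summed level of the 7 was 51.0 and 47.2 FPKM in WT and 34.4 and 31.1 FPKM in TXNDC9-KO. The cells are therefore called only by their label, and the part of their identity in the results was not tested. The summed FPKM of all genes also moved with the group, at 805816 and 971102 in the WT libraries and 535973 and 568280 in the TXNDC9-KO libraries.

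A snoRNA host gene is transcribed and spliced like other genes, and its introns are trimmed to snoRNAs, which guide the methylation (box C/D class) or pseudouridylation (box H/ACA class) of ribosomal RNA. Many host RNAs, like the mRNAs of ribosomal proteins, begin with a C and an unbroken run of C and T bases, the TOP motif, through which mTORC1 and the RNA-binding protein LARP1 set whether the RNA is translated. Many spliced host RNAs hold only short reading frames and, once translated, are degraded by nonsense-mediated decay, so that GAS5, named for its rise in growth-arrested cells, accumulates when translation is slowed.

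The starts of 5 of these genes are shown because they span the range from a TOP motif at the annotated start to none, and the reading of the host RNAs as TOP transcripts depends on them. RefSeq (GRCh38.p14) gave a start region for 8 of the 10 genes, not for SNHG6 and SNHG15. Each line below runs from 40 bases before to 30 bases after the annotated start, and the capitals mark the longest run of C and T bases that begins with C within 20 bases of that start. The windows lie at chr1:28581844-28581913 (minus strand) for SNHG12, chr20:49278602-49278671 (plus strand) for ZFAS1, chr6:85678704-85678773 (minus strand) for SNHG5, chr4:118278722-118278791 (plus strand) for SNHG8 and chr5:112160486-112160555 (plus strand) for EPB41L4A-AS1.
SNHG12: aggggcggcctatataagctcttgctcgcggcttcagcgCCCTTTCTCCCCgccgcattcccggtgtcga
ZFAS1: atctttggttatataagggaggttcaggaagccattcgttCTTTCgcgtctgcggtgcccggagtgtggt
SNHG5: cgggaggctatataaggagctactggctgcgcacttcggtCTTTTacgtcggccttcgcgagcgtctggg
SNHG8: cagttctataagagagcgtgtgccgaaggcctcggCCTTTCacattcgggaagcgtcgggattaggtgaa
EPB41L4A-AS1: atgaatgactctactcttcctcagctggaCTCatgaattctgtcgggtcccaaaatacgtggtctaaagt

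A C at the annotated start followed by at least 4 C or T bases was present in 3 of the 8 genes, SNHG5, SNHG12 and ZFAS1, beside 4.07% of 35116 RefSeq start regions, 4 of 18 other noncoding hosts, 7 of 29 protein-coding hosts and 10 of 16 ribosomal protein hosts. In SNHG12 the run was 12 bases long and began 1 base before the start, and in ZFAS1 and SNHG5 it was 5 bases long. The run of SNHG8 (CCTTTC) began 5 bases before the annotated start, that of SNHG16 (CTTTTC) at base 6, and that of SNHG1 (CTCCCC) 19 bases before it. EPB41L4A-AS1 and GAS5 had no run over 3 bases, the GAS5 window lying wholly upstream of the GENCODE locus to which its values belong, and the median over the 8 genes was 5.5 bases beside 4 bases over all start regions. The description of the 10 genes as TOP genes was therefore met by the sequence at the RefSeq start for 3 of the 8 that could be read. That start was the first base of the GENCODE release 44 locus for 1 of the 8, EPB41L4A-AS1, so other starts of these genes were not examined. The letters TATAA, on the gene's strand between 40 and 21 bases before the start, stood in 4 of the 8, namely SNHG5, SNHG8, SNHG12 and ZFAS1, beside 3.77% of all start regions, 2 of 18 other noncoding hosts, 4 of 29 protein-coding hosts and 0 of 16 ribosomal protein hosts. The letters CACGTG, an E-box that MYC can bind, and CCGGAAG, a core bound by ETS factors, were searched on both strands from 250 bases before to 50 after the start, and were in none of the 8 windows, beside 7.26% and 10.3% of all start regions.

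In both groups the host RNAs covered a wide range of level per length of transcript. GAS5 was the most abundant and EPB41L4A-AS1 the least, with 770 ± 155 and 24.0 ± 4.02 FPKM in WT (mean ± SD, n = 2) and 411 ± 20.6 and 14.1 ± 0.186 FPKM in TXNDC9-KO. In WT the order was GAS5, SNHG6, ZFAS1, SNHG1, SNHG16, SNHG5, SNHG8, SNHG15, SNHG12 and EPB41L4A-AS1. The ranges of neighbours overlapped from SNHG6 to SNHG1 and from SNHG16 to SNHG15, so the order of these neighbours does not exceed the spread of the libraries. SNHG6 (298 and 438 FPKM) and SNHG1 (255 and 260 FPKM), at the ends of the first run, did not overlap. In TXNDC9-KO the order was the same except that SNHG1 stood above ZFAS1, and no pair of neighbours overlapped. Together the 10 RNAs held 1882 and 2464 FPKM in the WT and 1129 and 1216 FPKM in the TXNDC9-KO libraries, of which GAS5 took between 35.0% and 35.7% in each.

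**Figure D1:**
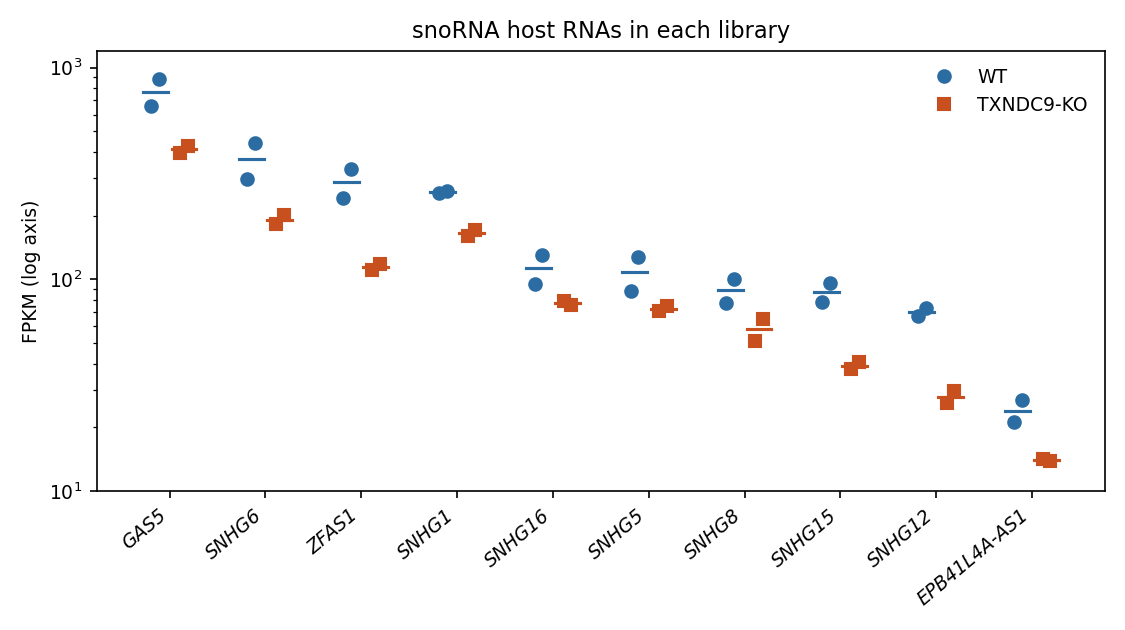
FPKM of each host RNA on a log axis in the 2 WT libraries (circles) and the 2 TXNDC9-KO libraries (squares), with a bar at each group's mean. For each of the 10 genes both squares lie below both circles on the deposited scale, from GAS5 (397 and 426 against 660.3 and 879 FPKM) to EPB41L4A-AS1 (14.2 and 13.9 against 21.2 and 26.9 FPKM).

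The comparison of TXNDC9-KO with WT asked which RNAs change when TXNDC9 is disrupted. On the deposited FPKM scale SNHG12, ZFAS1 and SNHG15 fell to between 39.8% and 44.8% of their WT mean, none of the 10 rose, and the other 7 lay at 52.0% to 68.6% of the WT mean without passing the threshold. Calls needed a change of at least 2-fold and an adjusted p under 0.01 (limma on log2(FPKM + 0.1), Benjamini-Hochberg over 13246 genes). Of all tested genes 15.3% were called lower and 14.2% higher, against 3 and 0 of the 10 host genes. Without the fold minimum 7 of the 10 were lower, beside 27.1% of all tested genes, and in 10 of the 10 both TXNDC9-KO values lay below both WT values, beside 45.9%. At an unadjusted p under 0.05 all 10 were lower and 0 higher, beside 38.3% and 33% of all tested genes. The median log2 fold change was -0.82 over the 10 and -0.09 over all tested genes, of which 22.7% lay at or below -0.82. In bulk RNA fewer cells that make an RNA and less RNA per cell cannot be told apart.

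SNHG12, the host on chromosome 1 of SNORA16A, SNORA44, SNORA61 and SNORD99, had 67.3 and 72.9 FPKM in the WT and 26.1 and 29.8 FPKM in the TXNDC9-KO libraries. The lowest WT value was 2.26 times the highest TXNDC9-KO value, which is the widest gap among the 10 genes. Its log2 fold change was -1.33 (SE 0.12, 95% interval -1.61 to -1.04, adjusted p = 5.9e-04 by limma). ZFAS1, the host of the SNORD12 family on chromosome 20, had 241 and 332 FPKM in WT and 111 and 118 FPKM in TXNDC9-KO. WT 2 was well above WT 1 here, and both stayed above the knockout libraries by 2.05 times at the closest. The log2 fold change of ZFAS1 was -1.31 (SE 0.18, 95% interval -1.75 to -0.87, adjusted p = 0.00161 by limma). SNHG15, the host of SNORA9 on chromosome 7, had 78.6 and 96.3 FPKM in WT and 37.6 and 40.7 FPKM in TXNDC9-KO. The groups were apart by 1.93 times, and the log2 fold change was -1.15 (SE 0.13, 95% interval -1.48 to -0.82, adjusted p = 0.00105 by limma).

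All 3 calls depended on having both knockout libraries. Without TXNDC9-KO 1 or without TXNDC9-KO 2 the log2 fold changes of the 3 genes lay between -1.42 and -1.09, but their adjusted p rose to between 0.0232 and 0.0371, and 0 of the 13246 genes were called in either case by limma, with 7129 and 7307 genes at an unadjusted p under 0.05. Without WT 1 the count of host genes called lower was 5, with SNHG6 and GAS5 added, and without WT 2 it was 3.

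SNHG6 and GAS5 came closest to the fold threshold. GAS5 had 660.3 and 879 FPKM in WT and 397 and 426 FPKM in TXNDC9-KO, a log2 fold change of -0.89 (SE 0.18, adjusted p = 0.00719 by limma). SNHG6, the host of SNORD87, had 298 and 438 FPKM in WT and 182 and 201 FPKM in TXNDC9-KO, a log2 fold change of -0.92 (SE 0.21, adjusted p = 0.0097 by limma). In both genes the WT libraries differed from each other more than the knockout libraries did, and the groups did not overlap. EPB41L4A-AS1, the host of SNORA13 on chromosome 5, was the rarest of the 10, with 21.2 and 26.9 FPKM in WT and 14.2 and 13.9 FPKM in TXNDC9-KO. Its log2 fold change was -0.76 (SE 0.14, adjusted p = 0.0046 by limma). SNHG1, the host on chromosome 11 of SNORD22 and of several snoRNAs from SNORD25 to SNORD30, was the steadiest in WT, with 255 and 260.2 FPKM, and stood at 161 and 171 FPKM in TXNDC9-KO. The log2 fold change of SNHG1 was -0.64 (SE 0.11, adjusted p = 0.00433 by limma).

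The smallest differences belonged to SNHG8, SNHG5 and SNHG16, whose adjusted p was above 0.01. SNHG8, the host of SNORA24 on chromosome 4, had 77.2 and 101 FPKM in WT and 51.4 and 65.3 FPKM in TXNDC9-KO, a log2 fold change of -0.60 (SE 0.18, 95% interval -1.06 to -0.15, adjusted p = 0.0277 by limma). SNHG5, the host of SNORD50B on chromosome 6, had 88.0 and 128 FPKM in WT and 70.6 and 75.0 FPKM in TXNDC9-KO, a log2 fold change of -0.54 (SE 0.19, 95% interval -1.01 to -0.07, adjusted p = 0.0453 by limma). SNHG16, the host of the SNORD1 family on chromosome 17, had 94.8 and 130.4 FPKM in WT and 78.7 and 75.8 FPKM in TXNDC9-KO, a log2 fold change of -0.53 (SE 0.17, 95% interval -0.95 to -0.10, adjusted p = 0.0352 by limma). For each of these 3 genes the lowest WT value exceeded the highest knockout value by no more than 1.21 times.

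The scale of the libraries set the sign of these smaller differences. When each library was rescaled to the same sum (TPM), the median of all tested genes moved from -0.09 to 0.59, the median of the 10 from -0.82 to -0.14, and none of the 10 was called lower, with 4 lower and 0 higher at an unadjusted p under 0.05 by limma. Of all tested genes 3.37% were then called lower and 33.1% higher. On that scale SNHG12 (-0.65), ZFAS1 (-0.63), SNHG15 (-0.47), SNHG6 (-0.24), GAS5 (-0.21) and EPB41L4A-AS1 (-0.08) had a negative log2 fold change, whereas SNHG1 (0.04), SNHG8 (0.08), SNHG5 (0.14) and SNHG16 (0.15) became positive. Rescaling shifts every gene of a library by nearly the same log2 amount. It therefore tells nothing new about the position of the host genes relative to the median of all tested genes. The median of the host genes lay 0.74 below it as deposited and 0.73 below it in TPM. All 10 lay below it on both scales. Correcting the libraries for the length and GC content of transcripts put their median 0.82 below that of all genes, again with all 10 below it. After that correction SNHG15 (-1.15), ZFAS1 (-1.65) and SNHG8 (-1.30) were called lower, and SNHG12 (-0.90) was not. Of the 13112 genes it covered 7.63% were then called lower and 7.32% higher. The GENCODE lengths used for it ran from 498 bases for SNHG16 to 6166 bases for SNHG8 and need not be those behind the deposited values.

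**Figure D2:**
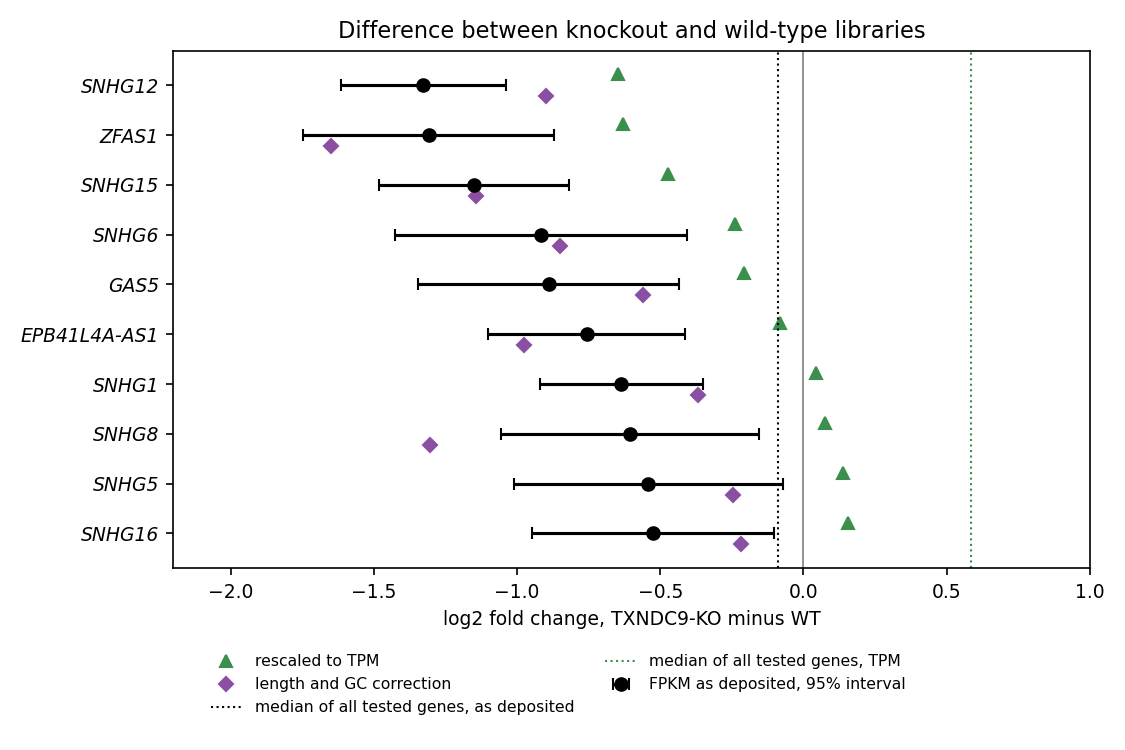
Log2 fold change (TXNDC9-KO minus WT) of each host gene from FPKM as deposited (circles, 95% interval from limma), rescaled to TPM (triangles) and after correction for length and GC content (diamonds), with dotted lines at the median of all tested genes as deposited (-0.09) and in TPM (0.59). Every circle and diamond lies left of 0, while 4 of the 10 triangles (SNHG1, SNHG8, SNHG5 and SNHG16) lie right of 0 and all triangles lie left of the TPM median. Rescaling shifts all genes of a library nearly alike, so positions relative to the median could hardly change from circles to triangles.

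Ratios between the host RNAs are given as a description, since the pairs were picked after the fold changes were seen and SNHG12 and SNHG16 lie at the ends of their order. The ratio of SNHG12 to SNHG16 was 0.71 and 0.559 in the WT and 0.331 and 0.393 in the TXNDC9-KO libraries, without overlap. ZFAS1 stood at 0.948 and 1.28 times SNHG1 in WT and at 0.689 and 0.691 times in TXNDC9-KO, and its share of the summed host RNA was 12.8% and 13.5% in WT against 9.81% and 9.7% in TXNDC9-KO. Such ratios within a library do not depend on how the library was scaled. With 2 libraries against 2, an exact permutation test of a single ratio cannot give a p under 0.33 (two-sided), so none was made. The WT libraries also differed from each other. All 10 RNAs were higher in WT 2 than in WT 1, by a median of 0.40 on the log2 scale beside 0.09 for all tested genes, while TXNDC9-KO 2 exceeded TXNDC9-KO 1 by a median of 0.10 (8 of 10 genes) beside 0.06.

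The snoRNAs themselves gave no signal. The GENCODE release 44 annotation used here places 23 snoRNA genes on the same strand within 9 of the 10 loci, 7 of them in SNHG1, 5 in SNHG12 and 3 each in ZFAS1 and SNHG16. The 23 have 22 start positions, since SNORA16A is entered at 1 position of SNHG12 under 2 identifiers. GAS5 is known as a host of box C/D snoRNAs, but this annotation lists none within its locus, so none was counted for it. Every one of the 23 was listed at 0 in all 4 libraries, as were all but 15 of the 941 snoRNA genes in the table. A library made from polyadenylated RNA is not built to capture mature snoRNAs, and a value of 0 can also be a failed estimate, so nothing can be read from these data on the snoRNAs.

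Several host loci overlap or adjoin another gene, and the use of strand in the counting is not stated, so reads of overlapping genes cannot be told apart. Of the neighbours that passed the filter, SLC3A2, the heavy chain of amino acid transporters such as LAT1, starts 51 bases from SNHG1 on the opposite strand. It had 688 and 811 FPKM in WT and 376 and 406 FPKM in TXNDC9-KO, a log2 fold change of -0.93 (SE 0.15, adjusted p = 0.00316 by limma), under the fold threshold like SNHG1 and -0.25 in TPM. ZBTB37, a zinc finger gene that overlaps GAS5 on the other strand, was called higher, at 0.462 and 0.413 FPKM in WT and 1.91 and 2.26 FPKM in TXNDC9-KO (log2 fold change 2.02), and it passed the filter on low values only through the TXNDC9-KO libraries, where it was high. EPB41L4A, which overlaps its antisense host EPB41L4A-AS1, rose from 1.81 and 1.33 FPKM to 4.28 and 3.85 FPKM (log2 fold change 1.33, adjusted p = 0.00285 by limma). After the correction for length and GC content neither ZBTB37 nor EPB41L4A was called.

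Near the other hosts no neighbour was called. ZNFX1, an RNA helicase gene whose start overlaps that of ZFAS1, had a log2 fold change of 0.52 (adjusted p = 0.014 by limma), and RP11-321N4.5, which overlaps SNHG5 on the same strand, had 1.05 (adjusted p = 0.0205 by limma). TRNAU1AP, a selenocysteine tRNA protein gene beside SNHG12, had -0.28 as deposited and 0.39 in TPM, and PRSS12, a serine protease gene across SNHG8, had 0.26.

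**Figure D3:**
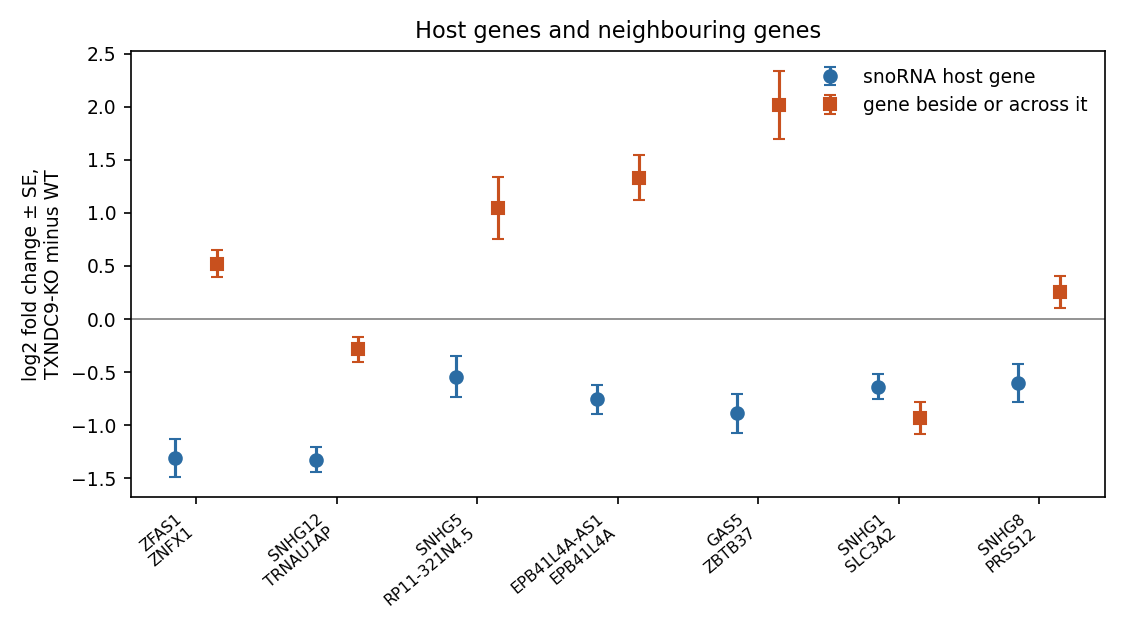
Log2 fold change ± SE from limma on FPKM as deposited (TXNDC9-KO minus WT) of host genes (circles) beside 7 tested genes that overlap or adjoin them (squares). SLC3A2 (-0.93) and TRNAU1AP (-0.28) lie on the same side of 0 as their host gene, and the other 5 lie above 0. In TPM TRNAU1AP also lies above 0, at 0.39.

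Lists of related genes were read beside the 10, as counts and medians with no test over a list, and a value in parentheses after a gene is its log2 fold change (TXNDC9-KO minus WT, FPKM as deposited). Among other noncoding snoRNA hosts 16 of 21 were tested, with a median log2 fold change of -0.65 (0.03 in TPM). Of the 16, 4 (25.0%) fell and 1 (6.25%) rose, beside 15.3% and 14.2% of all tested genes. The falls were led by SNHG9 (-1.77), which went from 55.6 and 76.05 FPKM in WT to 19.3 and 18.8 FPKM in TXNDC9-KO, and SNHG17 (-1.58). SNHG4 rose from 10.2 and 3.49 FPKM to 31.1 and 30.4 FPKM (log2 fold change 2.34, adjusted p = 0.00612 by limma), its WT libraries being far apart, and SNHG22 (1.23) was not called. Of 32 protein-coding hosts 4 (12.5%) fell and 3 (9.38%) rose, both shares below those of all tested genes, with a median of -0.46 (0.22 in TPM). PPAN (-1.62), a ribosome assembly factor, and EEF1B2 (-1.47), a subunit of the elongation factor complex, had the largest falls, and EIF5 (1.26), an initiation factor, and IPO7 (1.24), a nuclear import receptor, the largest rises. After the correction for length and GC content 7.63% of all the genes it covered were called lower and 7.32% higher. Of the other noncoding hosts 2 were then called lower and 2 higher. SNHG17 (-0.93) and SNHG4 (2.33) were no longer called, and SNHG22 (1.73) was called higher. Of the protein-coding hosts 6 were then called lower and 0 higher, with PPAN at -1.03, and EIF5 (0.63) and IPO7 (0.50) were no longer called.

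Ribosomal protein mRNAs are the best known TOP transcripts, and 26 of their genes also host snoRNAs. Of these, 17 fell by limma and 0 rose, beside the 15.3% and 14.2% of all tested genes, with a median of -1.11 (-0.43 in TPM). At an unadjusted p under 0.05 by limma 0 were higher, beside 33% of all tested genes. In all 26 both knockout values lay below both WT values, beside 45.9% of all tested genes. RPLP2 fell from 2100 and 2889 FPKM to 565 and 589 FPKM (-2.09) and RPL27A from 2278 and 3180 FPKM to 721 and 754 FPKM (-1.87), whereas RPS12 (-0.52) and RPL10 (-0.44) had the smallest differences and were not called. Ribosomal protein genes have many near-identical processed copies, so their values are uncertain. After the correction for length and GC content 8 of the 26 were called lower and 0 higher, beside 7.63% and 7.32% of all genes. No test of the difference between these hosts and the 10 was made.

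**Figure D4:**
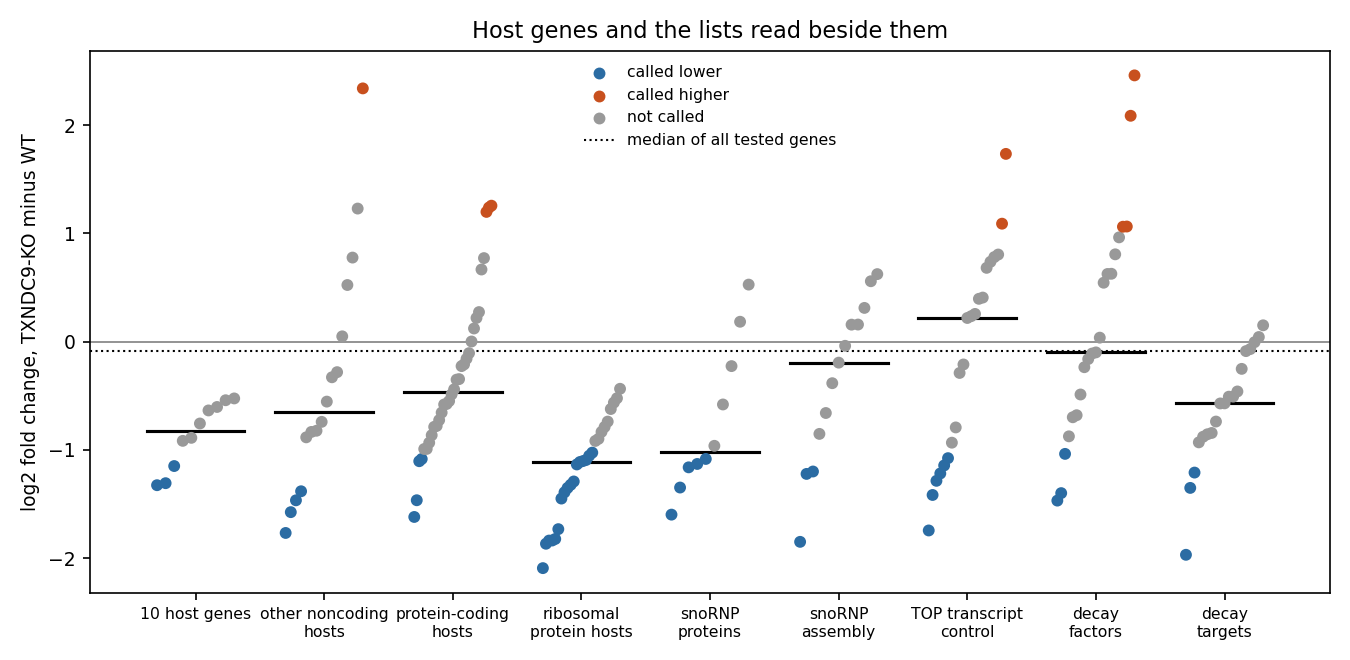
Log2 fold change (TXNDC9-KO minus WT, FPKM as deposited) of each tested gene in 9 lists, with a bar at each list's median and a dotted line at the median of all tested genes (-0.09). The 10 snoRNA host genes have a median of -0.82 and 3 called lower, the ribosomal protein hosts a median of -1.11 and 17 of 26 called lower, and the genes that control TOP transcripts a median of 0.22. In TPM the medians of the 10 host genes (-0.14), the ribosomal protein hosts (-0.43) and the proteins of snoRNA particles (snoRNP, -0.34) stay below 0, and those of the other lists and of all tested genes (0.59) lie above 0.

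Genes that control TOP transcripts moved in both directions. Of 21 tested, 6 (28.6%) fell and 2 (9.52%) rose, beside 15.3% and 14.2% of all tested genes. Their median was 0.22 as deposited, 0.90 in TPM and -0.27 after the correction for length and GC content. EIF4EBP1, a repressor of cap-dependent translation that mTORC1 switches off, fell from 217 and 291 FPKM in WT to 71.0 and 79.1 FPKM in TXNDC9-KO (-1.75). RPS6, a ribosomal protein phosphorylated downstream of mTORC1, fell by 1.42 on the log2 scale. The RPS6 mRNA is itself of the ribosomal protein kind named above as TOP transcripts. LARP1, which binds the cap and the TOP motif, rose from 30.1 and 30.1 FPKM to 61.3 and 67.1 FPKM (1.09, adjusted p = 6.62e-04 by limma), and its relative LARP4 rose from 13.7 and 13.6 FPKM to 45.1 and 46.2 FPKM (1.73). After the correction 3 of the 21 were called lower and 0 higher, beside 7.63% and 7.32% of all genes. EIF4EBP1, LARP1 and LARP4 were no longer called, with log2 fold changes of -0.98, 0.81 and 0.94. The kinase gene MTOR (0.23) and its partner RPTOR (0.22), which lay outside the rule for named genes and were chosen after their values were seen, were not called.

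Of 21 factors of nonsense-mediated decay 3 fell and 4 rose, beside 15.3% and 14.2% of all tested genes, with a median of -0.10 (0.58 in TPM). The exonuclease XRN1 rose from 1.27 and 1.37 FPKM to 8.26 and 7.19 FPKM (2.46), and the kinase SMG1 from 4.197 and 3.90 FPKM to 16.7 and 18.4 FPKM (2.09), although SMG1 has near-identical copies and is uncertain. SMG9 (-1.47), a partner of SMG1, and RBM8A (-1.40), a core protein of the exon junction complex, fell, and all 4 of these calls held after the correction for length and GC content, with XRN1 at 1.52 and SMG1 at 1.28. That correction left 3 of the 21 factors called lower and 2 higher, beside 7.63% and 7.32% of all genes. The helicase UPF1 (-0.68) and its partner UPF2 (0.54) were not called and were named after their values were seen. Among 19 tested mRNAs known as targets of this decay, 3 (15.8%) fell by limma and 0 rose, beside the same 15.3% and 14.2%. At an unadjusted p under 0.05 by limma 0 were higher, beside 33% of all tested genes. Their median was -0.57 (0.11 in TPM). ASNS, asparagine synthetase, fell from 70.5 and 102 FPKM to 20.2 and 22.9 FPKM (-1.97) and RPL12 fell by 1.35 on the log2 scale, while ATF3 (0.15) and SRSF3 (0.04) had the highest values and were not called. After the correction 1 of the 19 was called lower, ASNS (-1.99), beside 7.63% of all genes, and RPL12 (-0.88) was not. RPL12 is also in the ribosomal protein list. The values are per gene, so spliced forms of an mRNA that are targets and forms that are not cannot be told apart.

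Proteins of the snoRNA particles (snoRNPs) were also read. Of 10 box C/D and H/ACA proteins 5 fell by limma and 0 rose, beside 15.3% and 14.2% of all tested genes. At an unadjusted p under 0.05 by limma 1 was higher, beside 33% of all tested genes. The median was -1.02 (-0.34 in TPM). FBL, the methyltransferase of box C/D particles, fell from 371 and 515 FPKM to 135 and 154 FPKM (-1.60), and NOP10 of the box H/ACA particle from 350.2 and 503 FPKM to 156 and 174 FPKM (-1.35). SNU13 (-1.16), GAR1 (-1.13) and NOP56 (-1.08), all 3 named after their values were seen, also fell. DKC1, the pseudouridine synthase, had -0.23, and COIL (0.53) and NOLC1 (0.18) of the Cajal body and nucleolus had the highest values, none of them called. After the correction for length and GC content 1 of the 10 was called lower, NOP10 (-1.07), beside 7.63% of all genes. FBL (-0.92) was not called. NOP56, NOP58 and DKC1 are also protein-coding hosts. Of 13 assembly factors 3 (23.1%) fell by limma and 0 rose, beside 15.3% and 14.2% of all tested genes. At an unadjusted p under 0.05 by limma 3 were higher, beside 33% of all tested genes. Their median was -0.19 (0.48 in TPM). The falls were led by C12orf45 (-1.85), also called NOPCHAP1, and the ATPase RUVBL2 (-1.22), while TGS1 (0.62) and SHQ1 (0.56) were not called. After the correction 1 of the 13 was called lower, C12orf45 (-2.66), beside 7.63% of all genes, and RUVBL2 (-0.50) was not.

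The profile of the 10 over the 4 libraries was shared by many genes. By Euclidean distance of log2 values centred on each gene's mean, the nearest to their mean profile were PSMB1, a proteasome subunit (distance 0.011), PRR5, a subunit of mTORC2 (0.022), GTF2A2, a general transcription factor (0.026), PARL, a mitochondrial protease (0.03), and COX14, an assembly factor of cytochrome oxidase (0.031). GAS5 was the nearest of the 10 to their own mean (0.045) and SNHG12 the farthest (0.496), and 3444 tested genes lay within the distance of SNHG12. With 4 libraries in 2 groups, the distance rests on the difference between the groups and on the differences within them.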

How the data were processed

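Polyadenylated RNA of 4 libraries was sequenced on an Illumina platform. Reads had been mapped by the authors with TopHat2 (hg38), and the deposited FPKM of each gene came from Cuffdiff of the Cufflinks package, as the paper and the submitters' processing notes state. Versions, library normalization and strand use are not given in the sources used here. Because the deposited FPKM values are not counts, the depth is unknown, and no counting intervals or floors are given. The authors' columns of log2 fold change, p-value and q-value were not used.

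The table had 231916 lines, 57979 of them with values. Each identifier occurred 4 times and was out of register with its symbol, so identifiers were realigned by their order, after which all 10 members had their GENCODE release 44 symbol. Of the 57979 genes, 56935 had an identifier in that release and 34949 had its symbol. Why the other symbols differed was not tested. The test was limma 3.58.1 (R 4.3.3) on log2(FPKM + 0.1) for genes of mean FPKM above 1, with a trended prior variance, genotype as the only term, all 4 libraries and Benjamini-Hochberg adjustment over 13246 genes. Fold changes are on that log2 scale. The deposited averages equal the means of the libraries. Python 3.11.15, pandas 2.3.3, numpy 2.4.6 and matplotlib 3.10.9 were used. The fit was tested on simulated data with independent noise and larger changes than those of the host genes. How well it recovers changes of their size was not tested.

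The 10 members and all lists were chosen with earlier results of these data known. Named genes were the members, TXNDC9, genes that overlap a member or lie within 1000 bases of it, the 2 largest falls and rises of each list, and the 5 nearest profiles, and 1 gene that met this rule is not reported here. The motif TATAA was chosen after the sequences were seen. The correction for length and GC content was a loess curve (span 0.3) per library. Also tried were pseudocounts of 1 and 0.01, a mean FPKM above 5 or no filter, TPM, centring on the library median, an untrended prior, a replicate block, an adjusted p under 0.05, no fold minimum and leaving out each library.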

Additional observations from a re-analysis of the deposited data

How the results depend on the processing

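The log2 fold changes of all 10 host genes were negative under every alternative except rescaling to TPM, where SNHG1 (0.044), SNHG5 (0.14), SNHG8 (0.075) and SNHG16 (0.15) and also TXNDC9 (0.12) changed sign. Changing the threshold, the filter, the prior or the replicate block leaves each fold change as it was. Only the other alternatives could therefore alter a sign. In TPM 0 host genes were called lower by limma, the median of the 10 was -0.14, and 447 genes were called lower and 4380 higher of all tested, so that 90.7% of all calls were higher, beside 48.3% as deposited (2021 lower and 1885 higher) and 35.8% after centring. Centring on the library median called 5 of the 10 lower, beside 19.6% lower and 11% higher of all tested genes. With no fold minimum 7 were lower, beside 3590 lower and 3142 higher of all tested. The correction for length and GC content left 1000 genes lower and 960 higher, and a mean FPKM above 5 left 1220 higher. With no filter on low values ZFAS1 just missed the threshold (adjusted p = 0.0101 by limma). Leaving out 1 library gave 0 to 5 host genes called lower, a median of the 10 between -1.01 and -0.63, and 0 to 2633 genes lower and 0 to 2136 higher, the values of 0 coming from either TXNDC9-KO library. These fits assume that a lone library varies like the other group. The cause of these changes was not tested.

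The labels do not say whether same-numbered libraries were paired. The deviations of same-numbered libraries from their group means had a correlation of -0.09 across genes, which cannot show whether those libraries were handled together. With the replicate block the same 3 host genes were called lower, beside 16.2% lower and 14.8% higher of all tested genes (2146 and 1960). The median stayed at -0.82, since the block cannot change a fold change when each group holds both replicate numbers. At any fold all 10 had an adjusted p under 0.01 by limma. The matching share of all tested genes was not counted with the block. Without the block 7 of the 10 were lower at any fold, beside 27.1% of all tested genes. With the block and the length and GC correction together 1045 were lower and 1010 higher. With 2 libraries per group there is no check for an outlying library, and without counts no precision can be given for single values.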
